A study of Mus musculus and Mus musculus
Rattus norvegicus with 30 samples.

Results

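Mouse embryonic stem cells (mESCs) that carried 1 of 7 mutated forms of the rat Cdx2 gene (rCdx2) were compared with wild-type mESCs. The members are 16 of the 30 libraries of the series: 14 mutant libraries, pooled as 1 group, and 2 wild-type (WT) libraries. These members and the gene lists used below were chosen with earlier results of these data known. Libraries were assigned to mutant or WT by their sample labels alone. All were RNA-seq libraries of mESCs kept in N2B27 medium with LIF and with 2 inhibitors, PD0325901 against the kinase MEK and Chir99021 against GSK3. In a Tet-On system a Flag-tagged Cdx2 transgene, delivered by lentivirus, is transcribed while doxycycline (DOX) is present. In each mutant rCdx2 was given the mouse residues at 1 or more of 3 positions at which mouse and rat Cdx2 differ in the DNA-binding domain. Change 1 is a tyrosine to phenylalanine change, change 2 an alanine to serine change, and change 3 removes an asparagine. The constructs are named by the changes they carry: R1, R2, R3, R12, R13, R23 and R123, with 2 libraries each. The labels give neither the dose nor the duration of DOX for the mutants, and they do not say whether the WT cells were parental cells or an uninduced line. Effects of transduction, of DOX and of the Cdx2 protein therefore cannot be told apart, and whether the 2 libraries of a construct came from separate cultures is not stated, so p-values measure the spread between these samples only.

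Cdx2 is a homeodomain transcription factor of the caudal family. In the blastocyst it is needed for the trophectoderm, the outer layer that gives rise to the placenta, and there it opposes the pluripotency network of the inner cell mass. Later it acts in the posterior embryo, where Cdx proteins activate central and posterior Hox genes and so help to set position along the body axis, and in the gut, where it maintains intestinal identity. Forced expression of Cdx2 in mESCs is a long-used way to drive them towards trophoblast-like cells.

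The mutant libraries held 12698443 to 20639944 counts (median 16463013.5) and the WT libraries 74960057 and 94695650, so low WT levels were better resolved than low mutant levels. Levels are given in CPM, the counts of a gene scaled to a common library size after TMM normalisation, and of 19919 genes 15467 passed the filter on low counts. Mitochondrial genes took 3.86% to 5.58% of counts in the mutants and 1.63% and 1.73% in WT. The markers of mESCs were present in every library: Pou5f1 reached 631 to 930 CPM in the mutants, Sox2 263 to 363, Nanog 675 to 956 and Zfp42 110 to 130. The WT libraries stood apart in ways that bear on what follows. Of 12704 genes with at least 200 counts over both WT libraries, 69 differed over 2-fold between them, among them Gapdh, which has near-identical copies elsewhere in the genome, with 81.1 CPM in WT replicate 1 and 3213 CPM in WT replicate 2. Gapdh was therefore read neither as changed nor as unchanged. Both WT libraries also held more counts on genes that lie under a strongly transcribed gene of the other strand, as described with the counts of calls.

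Cdx2 itself, on the minus strand of chromosome 5 (chr5:147300805-147307270, GRCm38, ENSMUSG00000029646), was counted at 1.34 and 1.19 CPM in WT and at 36.8 to 146 CPM in the mutants, with a median of 63.0 CPM. Every mutant library lay above both WT libraries. The log2 fold change was 5.92 (SE 0.72), with an adjusted p of 6.36e-07 by the quasi-likelihood test of edgeR after Benjamini-Hochberg adjustment, the source of every adjusted p given here. Rat transgene reads were counted on the mouse gene, so these values are the sum of endogenous and introduced transcripts. The level followed the replicate number, with 61.3 to 146 CPM in replicate 1 and 36.8 to 67.9 CPM in replicate 2. Within each replicate it was also lower with change 3, at 61.3 to 92.9 against 143 to 146 CPM in replicate 1 and at 36.8 to 43.7 against 59.5 to 67.9 CPM in replicate 2. The related gene Cdx1, active in the posterior embryo and the gut, moved the other way. It stood at 58.5 and 55.6 CPM in WT and at 11.6 to 16.01 CPM in the mutants, without overlap (log2 fold change -1.98, SE 0.09, adjusted p = 1.01e-12). The third caudal gene, Cdx4, did not pass the filter.

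**Figure D1:**
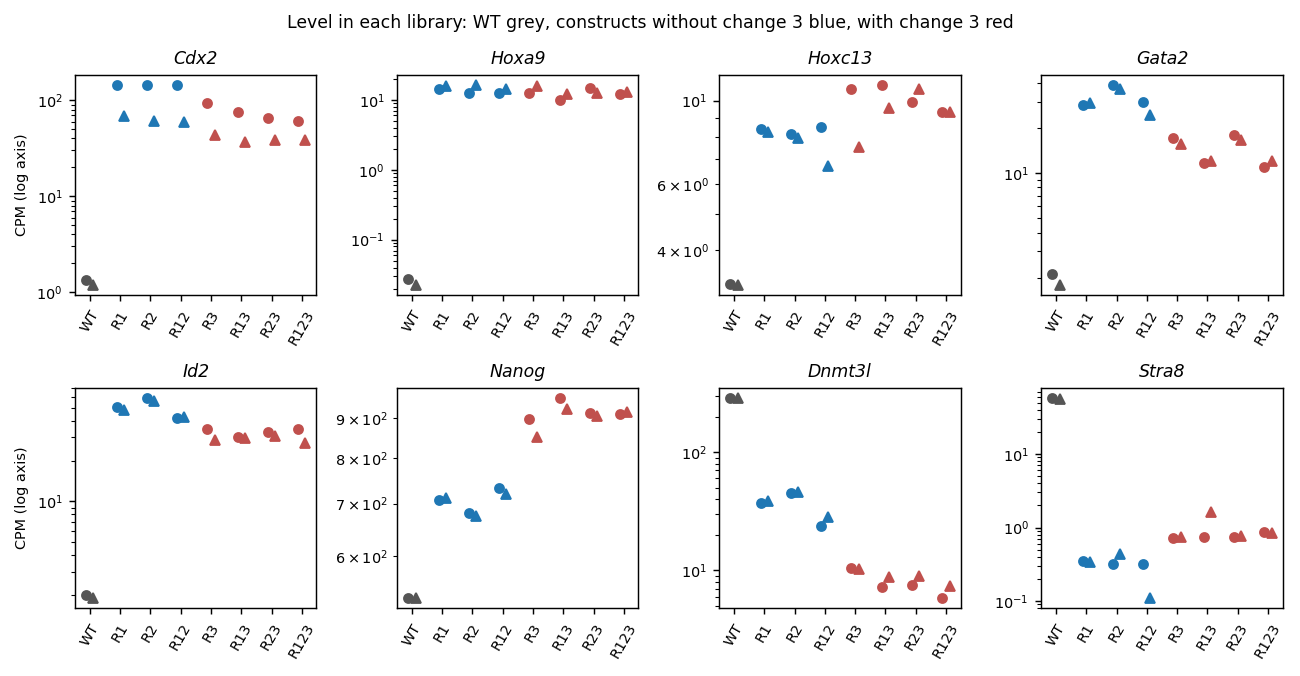
Level of 8 genes in each of the 16 libraries, in CPM on a log axis. Circles are replicate 1 and triangles replicate 2, with WT in grey, constructs without change 3 in blue and with change 3 in red. Cdx2, Hoxa9, Hoxc13, Gata2, Id2 and Nanog were higher in all 14 mutant libraries than in both WT libraries, and Dnmt3l and Stra8 lower.

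At an adjusted p under 0.05 and a fold over 2, 4017 of 15467 genes (26.0%) were called, 1965 of them higher (12.7%) and 2052 lower (13.3%). Without the fold threshold 10706 genes (69.2%) were called, and the median log2 fold change of all tested genes was -0.01. In 9627 genes (62.2%) the 14 mutant and the 2 WT libraries did not overlap in CPM. This background is high, so a list is read below against these shares and by the size of its changes. Falls were not spread evenly. Of 934 tested genes whose exons overlap those of a gene on the other strand with at least 10 times their level, 540 (57.8%) were called lower and 49 (5.25%) higher. Of 2419 genes with a partner less than 10 times higher, 226 (9.34%) were called lower and 127 (5.25%) higher. Among 12114 genes for which no exon overlap with a tested gene of the other strand was found, 1286 (10.6%) were called lower and 1789 (14.8%) higher. For 312 genes with a partner at least 100 times higher, the summed counts were 0.7% to 0.863% of the partners' counts in the WT libraries and 0.172% to 0.215% in the mutants. Whether this is a difference in how the libraries resolve strand or a difference between the cells cannot be told apart here, since it separates the same groups. With the 934 genes left out, 1916 of 14533 genes (13.2%) were higher and 1512 (10.4%) lower. A member of a list that has such a partner is named as such.

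**Figure D2:**
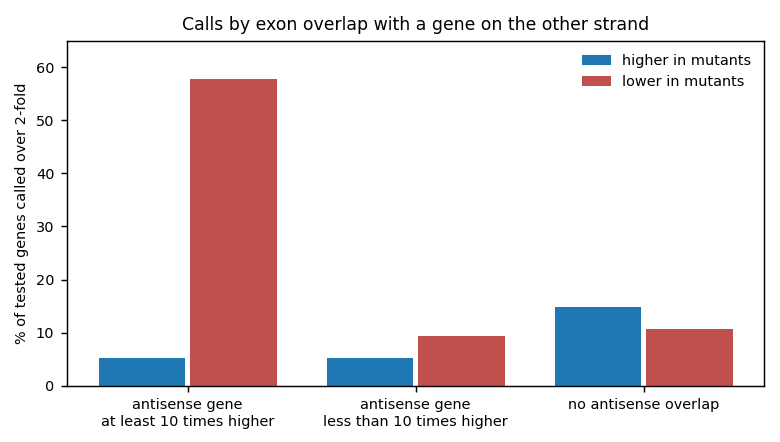
Share of tested genes called over 2-fold in the mutants against WT (y axis, %), for genes grouped by exon overlap with a gene on the other strand. The bars for lower genes reach 57.8% where the antisense gene is at least 10 times higher, against 10.6% where there is no overlap.

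The Hox clusters rose in the mutants. Hox genes encode homeodomain proteins that pattern the body axis in the order of their position along 4 clusters. Of the tested members, 7 of 8 rose in the Hoxa cluster, 3 of 6 in Hoxb, 9 of 9 in Hoxc and 5 of 5 in Hoxd, and none fell, with median log2 fold changes of 3.61, 1.51, 2.71 and 3.59. Hoxa9 (chr6:52223100-52231089, minus strand, ENSMUSG00000038227) had 2 counts in each WT library, 0.0278 and 0.0224 CPM, and 9.95 to 16.5 CPM in the mutants with a median of 12.8 CPM. Even the lowest mutant library was far above WT, and the ratio of the summed counts was 545 with a 95% counting interval of 213 to 2000. Its neighbour Hoxa10 stood at 0.0974 and 0.056 CPM in WT and at 3.52 to 5.54 CPM in the mutants (log2 fold change 5.79, SE 0.27, adjusted p = 1.61e-12). Hoxa7 rose from 0.682 and 0.638 CPM to between 8.83 and 27.9 CPM (log2 fold change 4.61, SE 0.61, adjusted p = 2.05e-06). The groups did not overlap for either gene.

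All 9 genes of the Hoxc cluster rose. Hoxc9 changed from 0.125 and 0.0224 CPM to between 1.29 and 3.29 CPM (log2 fold change 4.90), and Hoxc13, the most posterior gene, from 3.24 and 3.22 CPM to between 6.68 and 11.03 CPM (log2 fold change 1.48, SE 0.17, adjusted p = 2.29e-07). Hoxc13 thus had the highest WT level and the smallest rise of its cluster. In the Hoxd cluster, Hoxd4 had 5 counts over both WT libraries and 473 over the mutants, a ratio of 64.9 with a counting interval of 27.6 to 201. Its annotated span overlaps that of its neighbour, so reads of Hoxd3 and Hoxd4 may not be separated. Hoxd9 rose from 0.181 and 0.291 CPM to between 1.43 and 6.05 CPM. The Hoxb cluster had the smallest median of the 4 clusters. Hoxb9 rose from 1.84 and 2.15 CPM to between 3.13 and 12.7 CPM, while Hoxb8 ranged from 0 to 2.07 CPM over the mutants and overlapped with WT at 0.0696 and 0.0336 CPM although it was called (log2 fold change 3.77, SE 0.94, adjusted p = 0.00155), and without replicate 2 its adjusted p was 0.0861. Hoxb3 also overlapped, and its call was lost without WT replicate 2 (adjusted p = 0.087). Among the not called members, Hoxb4 had a log2 fold change of 1.02 and Hoxb13 of -0.40. Most Hox levels stayed low even where the fold was large: the 11 Hoxa genes summed to 3.94 to 4.12 CPM in WT and to 29.7 to 58.4 CPM in the mutants, and the 9 Hoxd genes to 9.95 to 14.6 CPM in the mutants.

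To show what lies under Cdx2 peaks at genes that rose, 5 sequences are given, 4 from Hox genes and 1 from Pof1b, which is among the 10 largest rises. Peaks are those of a merged set that the authors called on reads from mESCs expressing intact mouse or rat Cdx2. No mutant was profiled. The first 3 are the RefSeq promoter windows (GRCm38.p6, 250 bases before to 50 after the start) of the Hox genes called higher whose window a peak overlaps: Hoxd4 (chr2:74721728-74722027, plus strand), Hoxa7 (chr6:52218524-52218823, minus strand) and Hoxb8 (chr11:96281655-96281954, plus strand). The last pair are 300 bases at the centre of the nearest peak of Hoxa9 (chr6:52230903-52231202) and of Pof1b (chrX:112699268-112699567), read on the plus strand. Capitals mark TTTATG and TTTATTG, letters that Cdx2 is known to prefer, on either strand, where they read CATAAA and CAATAAA.
Hoxd4 promoter: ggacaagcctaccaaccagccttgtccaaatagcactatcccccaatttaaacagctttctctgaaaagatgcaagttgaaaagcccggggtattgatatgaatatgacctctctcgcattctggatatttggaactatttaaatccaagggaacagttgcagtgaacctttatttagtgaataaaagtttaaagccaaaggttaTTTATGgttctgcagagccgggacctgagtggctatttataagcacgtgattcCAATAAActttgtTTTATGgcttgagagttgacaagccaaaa
Hoxa7 promoter: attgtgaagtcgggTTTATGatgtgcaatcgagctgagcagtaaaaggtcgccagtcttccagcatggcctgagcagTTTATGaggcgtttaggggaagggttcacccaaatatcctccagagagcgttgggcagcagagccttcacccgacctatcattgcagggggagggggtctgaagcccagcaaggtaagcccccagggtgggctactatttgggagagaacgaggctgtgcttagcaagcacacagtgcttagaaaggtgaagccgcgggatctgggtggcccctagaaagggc
Hoxb8 promoter: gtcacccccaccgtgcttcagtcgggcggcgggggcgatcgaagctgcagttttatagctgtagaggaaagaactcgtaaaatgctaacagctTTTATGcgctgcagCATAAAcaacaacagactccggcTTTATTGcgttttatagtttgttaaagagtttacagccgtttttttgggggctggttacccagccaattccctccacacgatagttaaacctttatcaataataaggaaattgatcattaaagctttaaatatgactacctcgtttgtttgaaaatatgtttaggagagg
Hoxa9 peak centre: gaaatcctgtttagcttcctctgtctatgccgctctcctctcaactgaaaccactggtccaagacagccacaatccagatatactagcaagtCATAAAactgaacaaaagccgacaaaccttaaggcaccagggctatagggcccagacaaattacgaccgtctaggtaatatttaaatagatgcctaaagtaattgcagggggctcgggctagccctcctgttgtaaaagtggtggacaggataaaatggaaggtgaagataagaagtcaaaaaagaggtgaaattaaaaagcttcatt
Pof1b peak centre: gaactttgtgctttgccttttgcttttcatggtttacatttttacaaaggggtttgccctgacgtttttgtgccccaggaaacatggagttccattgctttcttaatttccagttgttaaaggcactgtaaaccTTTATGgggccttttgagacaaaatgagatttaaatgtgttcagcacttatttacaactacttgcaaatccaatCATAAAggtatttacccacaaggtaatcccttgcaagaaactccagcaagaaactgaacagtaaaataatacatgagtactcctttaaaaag
These windows were picked after their letters were seen, and each held TTTATG. Of the nearest-peak windows of the 10 largest rises, 4 held TTTATG, 3 held TTTATTG only and 3 held neither. The promoters of Hoxd4, Hoxa7 and Hoxb8 as well as the window of Pof1b held it 2 times. TTTATG was present in 50.4% and either of the motifs in 66.6% of 91665 peak centres of this length, and either was present in 8.48% of 9019 promoters of tested genes. A match describes these letters only.

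Genes of the trophoblast stem cell rose in the mutants. Of 21 tested genes on this list 14 rose and none fell, with a median log2 fold change of 1.42. Gata2 (chr6:88193891-88207032, ENSMUSG00000015053), a zinc finger factor of the trophectoderm, stood at 2.1 and 1.78 CPM in WT and at 11.01 to 38.9 CPM in the mutants (median 17.5, log2 fold change 3.47, SE 0.52, adjusted p = 9.81e-06). Id2, an inhibitor of basic helix-loop-helix factors that is enriched in early trophectoderm, rose from 2 and 1.89 CPM to between 27.4 and 59.3 CPM (log2 fold change 4.32, SE 0.34, adjusted p = 2.19e-09). Of the keratins of simple epithelia, Krt7 rose by 3.52, Krt18 by 2.46 and Krt8 by 1.76 on the log2 scale. Krt19 overlapped with WT, at 1.15 to 6.21 CPM in the mutants against 1.94 and 2.46 CPM. Gata2, Id2, Krt7, Krt18 and Krt8 did not overlap between the groups. Gata3, which acts beside Cdx2 in the trophectoderm, rose little, from 1.57 and 1.59 CPM to between 1.84 and 5.34 CPM (log2 fold change 1.02, SE 0.30, adjusted p = 0.00586), and without WT replicate 1 or 2 its adjusted p was 0.0551 or 0.0521. N-cadherin, Cdh2, rose from 5.12 and 4.46 CPM to between 8.03 and 27.6 CPM. Eomes, the T-box factor that sustains trophoblast stem cells, had a log2 fold change of -0.78 and Tfap2c of -0.50, both under the fold threshold, and Fgfr2, the receptor through which FGF4 keeps these cells dividing, one of 0.88. Ascl2, also on this list, was not called (log2 fold change 0.36), and its direction against WT depended on the construct. It stood at 4.34 and 4.4 CPM in WT, at 7.05 to 10.03 CPM without change 3 and at 2.77 to 4.11 CPM with it.

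Of 6 tested genes of differentiated trophoblast, 3 rose and 2 fell. Plac1 rose from 0.251 and 0.134 CPM to between 2.2 and 6.73 CPM, and Gcm1, the factor of the syncytiotrophoblast, from 1.06 and 0.907 CPM to between 2.64 and 6.77 CPM. Dlx3 was called but overlapped with WT, and its call was lost without WT replicate 1 or 2 (adjusted p = 0.118 and 0.081). Mdfi and Ovol2 fell by 2.11 and 1.83 on the log2 scale. Over the 9 genes of this list in the table the summed level was 56.9 and 57.1 CPM in WT and 51.0 to 95.6 CPM in the mutants, so as a whole it overlapped.

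The core of the pluripotency network was reduced in part. Pou5f1 fell short of the threshold, with 1443 and 1441 CPM in WT against 631 to 930 CPM in the mutants (log2 fold change -0.88, SE 0.15, adjusted p = 2.84e-05). Sox2 behaved alike, with a log2 fold change of -0.56, whereas Nanog had one of 0.63, with 530 and 531 CPM in WT against 675 to 956 CPM. None of these factors overlapped between the groups. On the core list 3 of 9 genes fell and none rose: Lin28a, which binds RNA and blocks the maturation of let-7, fell from 308 and 314 CPM to between 28.4 and 109 CPM, Utf1 fell from 256 and 249 CPM to between 34.7 and 95.2 CPM, and Dppa4 by 1.46 on the log2 scale. Of 16 naive pluripotency genes only Tfcp2l1 rose, from 431 and 449 CPM to between 855 and 1047 CPM (log2 fold change 1.13, SE 0.08), and Klf2 and Gbx2 fell by 1.07 and 1.17 on the log2 scale. Klf4 and Klf5, close relatives of Klf2, had log2 fold changes of 0.85 and 0.65, and Esrrb one of 0.28. The naive list summed to 5079 and 5185 CPM in WT and to 4512 to 5334 CPM in the mutants.

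Of 12 tested genes of the formative and primed epiblast, the state that follows the naive one, 5 fell and 1 rose. Dnmt3a and Dnmt3b are among these 5 and are counted again with the methylation enzymes. Lef1 stood at 15.9 and 16.3 CPM in WT and at 0.966 to 3.68 CPM in the mutants (log2 fold change -3.12, SE 0.24, adjusted p = 1.06e-09), and Sox3 fell by 2.42 on the log2 scale. Otx2, a regulator of the exit from the naive state, went the other way, from 5.43 and 4.92 CPM to between 12.5 and 21.7 CPM.

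The enzymes that set DNA methylation de novo fell. Dnmt3l, the cofactor without catalytic activity (chr10:78041947-78063622, ENSMUSG00000000730), stood at 286 and 288 CPM in WT and at 5.78 to 45.6 CPM in the mutants, with a median of 10.4 CPM (log2 fold change -3.82, SE 0.49, adjusted p = 1.52e-06). Dnmt3a fell from 162 CPM in both WT libraries to between 27.6 and 36.2 CPM (log2 fold change -2.35, SE 0.07, adjusted p = 2.19e-15) and Dnmt3b from 481 and 480 CPM to between 92.1 and 235 CPM (log2 fold change -1.65). No mutant library reached a WT level for any of the 3. The maintenance enzyme Dnmt1 had a log2 fold change of -0.39 only. Tet2, which oxidises 5-methylcytosine, rose from 139 and 142 CPM to between 291 and 332 CPM, and this was the single rise among the 9 genes of the list. Of 13 germline genes known to be held silent by methylation 2 rose, Dazl (log2 fold change 1.6) and Hormad1 (1.28), and none fell. The other 11 were not called and the list median was 0.2. This share of rises is near the 12.7% of all tested genes that were called higher. Of 7 genes of the 2-cell-like state none was called. Zscan4d had a log2 fold change of 0.19.

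**Figure D3:**
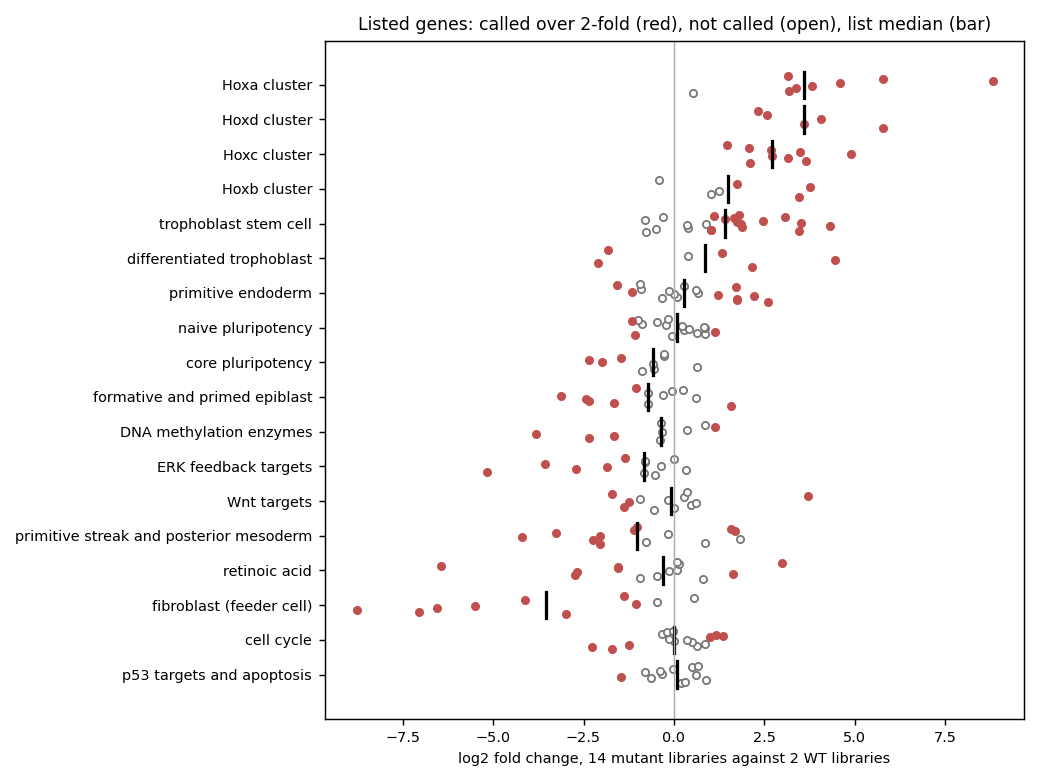
Log2 fold change of the 14 mutant against the 2 WT libraries for tested genes of 18 lists (x axis). Red points passed an adjusted p of 0.05 and a fold over 2, open points did not, and the bar is the list median. The Hox clusters lie to the right, with medians of 1.51 to 3.61, and the fibroblast list to the left with -3.55.

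Feedback targets of the ERK pathway are induced when FGF activates MEK and ERK, and the medium held a MEK inhibitor. Of 12 tested, 5 fell and none rose (median log2 fold change -0.82). Spry4 stood at 24.5 and 26.6 CPM in WT and at 0.0677 to 2.15 CPM in the mutants (log2 fold change -5.18, SE 0.45, adjusted p = 7.11e-09), Dusp6, the ERK phosphatase, at 27.7 CPM in both WT libraries and at 2.52 to 5.98 CPM in the mutants, and Egr1 fell by 3.57 on the log2 scale. In each case the groups were apart. Spry2 and Etv5, with higher levels, had log2 fold changes of -0.84 and -0.37. The ligand Fgf4 was not called, at 212 and 219 CPM against 179 to 301 CPM.

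Among 12 tested Wnt targets 3 fell and 1 rose. Ccnd1 fell from 222 CPM in both WT libraries to between 49.6 and 90.2 CPM, and Notum and Sp8 fell by 1.25 and 1.37 on the log2 scale, though both calls were lost without replicate 1 (adjusted p of 0.05 and 0.0547). In contrast Dkk1, a secreted Wnt antagonist, rose from 0.362 and 0.403 CPM to between 2.83 and 8.05 CPM (log2 fold change 3.70). Axin2, the common reporter of this pathway, had a log2 fold change of -0.56. Of 11 Nodal and Bmp targets 3 rose and 2 fell. Id1 and Id3 fell by 1.58 and 2.58 on the log2 scale while Id2, of the same family, rose by 4.32. Bmp4 itself fell from 16.7 and 17.8 CPM to between 0.609 and 4.09 CPM. In the retinoic acid list 5 of 14 fell and 2 rose. Stra8, a germ cell gene that retinoic acid induces (chr6:34920163-34939344, ENSMUSG00000029848), stood at 58.1 and 56.6 CPM in WT and at 0.109 to 1.65 CPM in the mutants (log2 fold change -6.45, SE 0.24, adjusted p = 6.38e-14). The receptor gene Rarg fell from 149 and 148 CPM to between 13.4 and 36.2 CPM, and Aldh1a3, an enzyme that makes retinoic acid, rose by 2.98 on the log2 scale. Rarb, which was not called, lies under Top2b on the other strand.

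Most genes of the streak and posterior mesoderm did not rise beside the posterior Hox genes. On the primitive streak and posterior mesoderm list 7 of 13 fell and 2 rose, with a median log2 fold change of -1.03. The founder gene T stood at 1.98 and 2.19 CPM in WT and at 0.204 to 0.924 CPM in the mutants (log2 fold change -2.05, SE 0.29), and Wnt8a fell from 8.52 and 8.34 CPM to between 0 and 1.12 CPM. Gsc, a gene of the anterior streak, rose by 1.70. Wnt5a stood at 2.66 to 6.52 CPM in libraries without change 3 and at 0.43 to 1.1 CPM with it, against 0.71 and 0.649 CPM in WT. Rspo3 was split alike, at 0.779 to 1.035 and at 0.0735 to 0.544 CPM, against 0.223 and 0.134 CPM in WT. The 2 intestinal genes that fell were Anpep and Gpa33, and 1 of the 7 tested, Muc2, rose from 0.292 and 0.202 CPM to between 0.218 and 1.05 CPM with overlap, a call that was lost without WT replicate 2 (adjusted p = 0.0879). Vil1, not called, lies under Usp37 on the other strand. In the primitive endoderm list 6 of 17 rose and 2 fell: Gata6 rose from 0.571 and 0.75 CPM to between 2.78 and 5.5 CPM (log2 fold change 2.61, SE 0.24), and Gata4 by 1.74 and Sox17 by 1.75 on the log2 scale, all from levels under 1 CPM, while Col4a1 and Amn fell. The call of Sox17 was lost without WT replicate 1 (adjusted p = 0.0524) and that of Amn without replicate 1 (adjusted p = 0.0597).

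Epithelial genes split. Of 18 junction and keratin genes 3 rose (Cldn3 by 2.36, Dsp by 1.99 and Cldn4 by 1.16 on the log2 scale) and 3 fell (Cldn6 by 1.69, Crb3 by 1.64 and Cgn by 1.59), and E-cadherin, Cdh1, was not called, at 432 and 434 CPM in WT and 430 to 482 CPM in the mutants. Krt7, Krt8 and Krt18, given above with the trophoblast stem cell genes, are not among these 18. Of 9 genes of the epithelial to mesenchymal transition Snai2 and Zeb1 rose and the intermediate filament Vim fell, from 305 and 301 CPM to between 58.4 and 102 CPM. In the neural list 1 of 8 rose and 2 fell (Neurod1 and Tubb3, the latter with an adjusted p of 0.0523 without replicate 1 and 0.0581 without replicate 2), and in blood and endothelium 3 of 8 rose and none fell (Kdr, Runx1 and Lmo2, each with medians of 0.59 to 1.23 CPM in the mutants).

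Markers of fibroblasts, which serve as feeder cells in many mESC cultures, were lower in the mutants: 8 of 10 tested fell and none rose, with a median log2 fold change of -3.55. Col1a2 stood at 11.1 and 10.3 CPM in WT and at 0 to 0.232 CPM in the mutants (log2 fold change -7.04, SE 0.37), and Col3a1 had 657 counts over the WT libraries and 1 over all 14 mutant libraries, a ratio of 958 with a counting interval of 171 to 37900. Not all such markers fell. Fbn1 was higher in every mutant library, at 4.54 to 7.3 CPM against 3.95 and 4.31 CPM in WT. Pdgfrb overlapped, at 1.51 to 4.7 CPM against 4.58 and 3.82 CPM. The 12 listed genes summed to 52.5 CPM in both WT libraries, to 10.3 to 14.6 CPM in the mutants and to 35.6 to 42.4 CPM in the 4 libraries with intact Cdx2. None of the 12 was at 0 in both WT libraries, and 1 was at 0 in every mutant library. Fewer cells of a type and less RNA per cell cannot be told apart in bulk samples. The part of these markers in the falls of other genes was not tested.

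By size, the 10 largest rises under the naming rule were Hoxa9, Ren1, Nav3, Tat, Sez6l, Cd3g, Pla2g7, Cdx2, Hoxa10 and Pof1b. Ren1, which encodes the protease renin (chr1:133350510-133360325, ENSMUSG00000070645), stood at 0.0418 and 0.0896 CPM in WT and at 19.7 to 45.3 CPM in the mutants, with a median of 24.1 CPM (log2 fold change 8.67, SE 0.63, adjusted p = 6.05e-10). A closely related copy exists in some mouse strains, and reads of such copies are not separated by these counts. Nav3, a protein that binds microtubules, had 6 counts over the WT libraries and 1302 over the mutants, a ratio of 149 with a counting interval of 68.2 to 406. Tat, the tyrosine aminotransferase of the liver, reached 3.3 to 6.69 CPM from 0.0278 and 0.0672 CPM, Sez6l 6.13 to 10.3 CPM from 0.0557 and 0.112 CPM, and Cd3g, a chain of the T cell receptor complex, 10.9 to 16.6 CPM from 0.153 and 0.213 CPM. Pof1b, an actin-binding protein of epithelia on the X chromosome, rose from 0.571 CPM in both WT libraries to between 20.96 and 33.3 CPM (log2 fold change 5.55, SE 0.21, adjusted p = 6.38e-14). Pla2g7, a phospholipase that degrades platelet-activating factor, varied most among the mutants, from 4.11 to 17.7 CPM. None of these 10 genes overlapped between the groups, which the rule requires.

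The 10 largest falls were Lox, AC126028.2, AY036118, Acat3, Sla2, Samd11, Col1a2, Tomt, Stra8 and Plac8. Lox, the enzyme that crosslinks collagen, had 1821 counts over the WT libraries and 3 over the mutants, a ratio of 885 with a counting interval of 302 to 4300. It is not on the fibroblast list. Of the 10, 4 lie under a gene on the other strand with at least 10 times their level: AY036118 under Gm42418, Acat3 under Tcp1, Samd11 under Noc2l and Tomt under Anapc15. Acat3 fell from 20.6 and 15.6 CPM to between 0 and 0.147 CPM, and for these 4 the difference cannot be told apart from the difference in antisense counts between the groups. AC126028.2 could not be given a position, so whether it lies under such a gene is not known here. Plac8 fell from 4.86 and 4.96 CPM to between 0 and 0.221 CPM and Sla2, an adaptor of T cell signalling, had 1168 counts over the WT libraries and 7 over the mutants.

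Of 10 housekeeping genes 9 were not called over 2-fold, none rose, and the list median was -0.11. Of 15 cell cycle genes 3 rose (Mki67 by 1.17, Cdkn2a by 1.01 and Cdkn2b by 1.35 on the log2 scale) and 3 fell (Ccnd1, Ccnd2 and Ccne1, the last by 1.24). Among 12 p53 targets Bax fell from 181 and 185 CPM to between 52.2 and 75.2 CPM and the others were not called. Among 12 stress genes Atf3 rose and Hspb1 fell, and Ddit3, which was not called, lies under Mars on the other strand. Of the TALE cofactors, partners of Hox proteins on DNA, Pknox2 rose by 1.28, Meis1 by 1.08 and Pbx2 fell by 1.19 on the log2 scale, and 6 of 9 were not called. Without WT replicate 1 the log2 fold changes of Meis1 (0.94) and Cdkn2a (0.98) no longer passed the fold threshold. None of 4 X inactivation genes was called. Xist stood at 4.16 and 4.61 CPM in WT and at 1.62 to 8.32 CPM in the mutants.

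The mutants were not alike. A joint test over the 7 constructs found 3931 of 14699 genes (26.7%) that differed, and 6949 with the replicate number as a block. Same-numbered libraries of different constructs deviated together, which is why the count with the block is given. The range of construct means had a median of 0.60 on the log2 scale over the genes that differed, and 803 of them had a range over 1. With change 1, change 2 and change 3 as 3 terms of 1 model, an analysis chosen after these data were seen, 7618 genes (51.8%) differed with change 3, 3918 higher and 3700 lower. Change 1 gave 4 genes (0.0272%) and change 2 gave 0 (0.0%) by edgeR, with 1106 and 1423 genes at an unadjusted p under 0.05. With the replicate block changes 1, 2 and 3 gave 66, 228 and 8601 genes. Summing the libraries of each construct, so that 4 constructs with change 3 met 3 without, left 8083 genes for change 3, 21 for change 1 and 32 for change 2. In 3105 genes (21.1%) the 8 libraries with change 3 and the 6 without did not overlap, and Cdx2 was not among them, since its highest level with change 3 was 92.9 CPM and its lowest without 59.5 CPM. In the model with the 3 terms Cdx2 differed with change 3 by -0.94 on the log2 scale (SE 0.26, adjusted p = 0.00473). Without change 3, Cdx2 stood at 143 to 146 CPM in replicate 1 and 59.5 to 67.9 CPM in replicate 2, and Dnmt3l at 23.9 to 45.3 and 28.4 to 45.6 CPM. With change 3, Cdx2 stood at 61.3 to 92.9 and 36.8 to 43.7 CPM, and Dnmt3l at 5.78 to 10.45 and 7.34 to 10.25 CPM. These are RNA levels. The parts of the change of the protein and of its amount in these differences were not tested.

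The 10 genes with the lowest p in the joint test were Enox1, Lin28a, Adgre5, Mest, Dnmt3l, B3gnt7, Trh, Sfmbt2, Ntn1 and Zfp773. All 10 separated the constructs by change 3 without overlap. Dnmt3l stood at 23.9 to 45.6 CPM in the 6 libraries without change 3 and at 5.78 to 10.45 CPM in the 8 with it, Lin28a at 83.6 to 109 against 28.4 to 39.0 CPM, and Enox1, an oxidase of the cell surface, at 16.5 to 25.2 against 1.56 to 4.17 CPM. Trh, the precursor of thyrotropin-releasing hormone, stood at 27.0 to 36.3 against 3.99 to 12.0 CPM, and Ntn1, a guidance cue, at 27.6 to 42.7 against 7.92 to 15.9 CPM. In these 5 genes WT was higher than every mutant library (Enox1 at 74.2 and 73.0 CPM, Trh at 126 and 124 CPM), so the constructs with change 3 lay farther from WT. Sfmbt2, an imprinted Polycomb gene of the placenta, went the other way, with 67.1 and 66.2 CPM in WT, 78.5 to 103 CPM with change 3 and 150 to 192 CPM without. Adgre5 and Zfp773 were higher with change 3, at 71.6 to 91.4 against 30.9 to 39.0 CPM and at 15.0 to 26.0 against 5.06 to 7.45 CPM. Libraries with intact mouse or rat Cdx2, of which the rat form lacks change 3, did not all follow this split. Adgre5 stood there at 77.3 to 91.7 CPM, in the range of the constructs with change 3. B3gnt7 stood there at 45.6 to 51.4 CPM, between 21.1 to 29.7 CPM with change 3 and 52.0 to 66.7 CPM without.

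**Figure D4:**
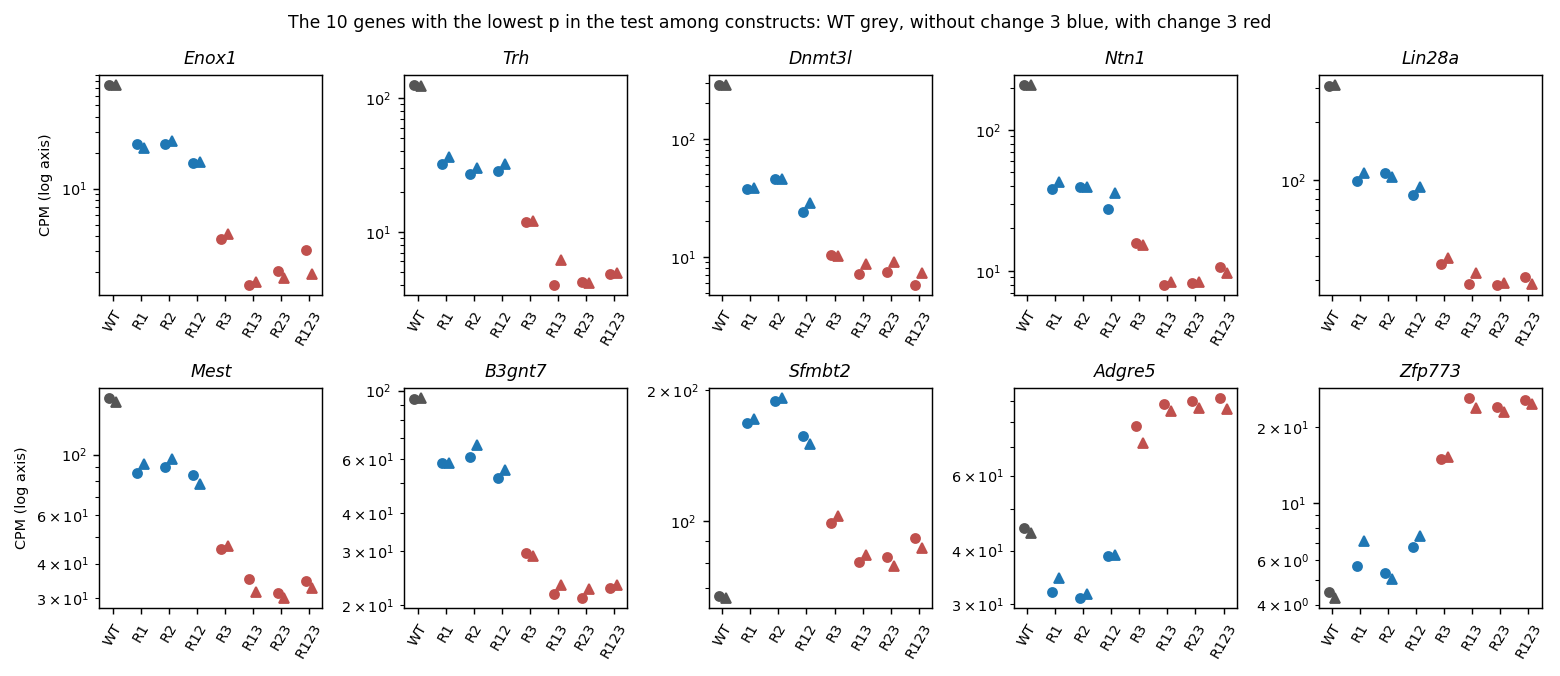
Level in each library, in CPM on a log axis, of the 10 genes with the lowest p in the joint test among the 7 constructs. Circles are replicate 1 and triangles replicate 2, with WT in grey, constructs without change 3 in blue and with change 3 in red. Dnmt3l lies at 23.9 to 45.6 CPM without change 3 and at 5.78 to 10.45 CPM with it.

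Over all 14699 genes 26.7% were higher with change 3 and 25.2% lower, and the lists are set beside these shares. Of 21 trophoblast stem cell genes 15 were lower with change 3 and 3 higher. Lower were Gata2 (log2 difference -1.23, adjusted p = 3.15e-11), Ascl2 (-1.45) and Krt8 (-1.04). Of 12 ERK feedback targets 9 were lower and none higher, of 12 Wnt targets 9 were lower and none higher, and of 13 germline genes 9 were higher and none lower. Nanog was higher with change 3 by 0.38 on the log2 scale, and Id3 lower by 2.61. Hoxa9, Hoxa10 and all but 2 of the Hoxc genes did not pass the test for change 3, whereas Hoxa7 was lower by 1.30 and Hoxb3 by 2.73. Read singly against the shared WT libraries, the constructs gave 3635 (R1), 3649 (R2), 3710 (R12), 4008 (R3), 4354 (R13), 4514 (R23) and 4536 (R123) genes called over 2-fold.

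The nearest comparison is with the 4 libraries of mESCs with intact mouse or rat Cdx2. Against them 9305 of 16000 genes (58.2%) differed in the mutants at any fold, 4494 higher (28.1%) and 4811 lower (30.1%), and over 2-fold 639 were higher and 1838 lower. Same-numbered intact and mutant libraries did not deviate together (correlations of -0.25 to -0.09 over 14 pairs), whereas those of intact rat and mouse Cdx2 did (0.77). Mitochondrial genes took 2.82% to 4.03% of counts in the intact libraries and 3.86% to 5.58% in the mutants. The part of such differences between sets of libraries in these counts was not tested. Cdx2 itself did not differ detectably (log2 difference -0.23, SE 0.31, adjusted p = 0.551), with 67.0 to 127 CPM in the intact lines. The trophoblast stem cell list was lower in the mutants for 14 of 21 genes and higher for 3. In the Hox clusters 8 of 10 Hoxa, 3 of 8 Hoxb, 3 of 9 Hoxc and 5 of 8 Hoxd genes were lower, and 3 Hoxc genes were higher. The 5 largest differences upward were Ebf1, Trh, Pudp, Osm and Liph. Ebf1, a factor of B cells and stroma, stood at 3.06 to 6.8 CPM in the mutants and at 0.065 to 0.367 CPM in the intact lines, with WT at 5.01 and 4.93 CPM. Liph, a lipase, stood at 21.8 to 30.1 against 2.99 to 3.52 CPM, with WT at 44.4 and 43.5 CPM. The 5 largest downward were Stra8, Xist, Csf1, Tagln and Dlx3. Stra8 was at 15.0 to 29.5 CPM in the intact lines, between WT and the mutants, while Xist was at 69.6 to 102 CPM there, far above both. Tagln, an actin-binding protein of smooth muscle and fibroblasts, had 0.332 to 1.99 CPM in the mutants and 9.37 to 20.1 CPM in the intact lines, and the fibroblast list summed to 10.3 to 14.6 CPM in the mutants and to 35.6 to 42.4 CPM there, a difference whose part in that of Tagln was not tested. Dlx3, a homeobox gene of the placenta, stood at 0.348 to 1.95 against 9.7 to 16.5 CPM.

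A Cdx2 peak lay within 30 kb of the start of 81.5% of the genes called higher (1576 of 1934 with a position), of 68.9% of those called lower and of 77.6% of those not called. With more peaks the share of genes called higher went up from 10.2% with none to 11.5% with 1, 13.3% with 2 or 3 and 16.3% with 4 or more, and the share called lower went down from 17.8% to 15.3%, 11.4% and 7.88%. With genes under a strong antisense partner left out these ranges were 10.7% to 16.7% and 14.4% to 5.23%. Genes with more peaks were also more highly expressed, with a median log2 CPM of 3.54 with no peak and 4.76 with 4 or more, and the part of expression in these shares was not tested. Among the named rises, Hoxa9 had 8 peaks and Hoxa10 had 7 within 30 kb, Pla2g7 5 and Pof1b 4, whereas Ren1 had 1. At the promoter itself the groups were close: a peak overlapped the 300-base window in 15 of 1081 genes called higher (1.39%), 18 of 1027 called lower (1.75%) and 117 of 6911 not called (1.69%). TTTATG or TTTATTG stood in 9.16% of the promoters of genes called higher, 8.28% of those called lower and 8.41% of those not called. Genes are not replicates, and no test was made of these shares.

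**Figure D5:**
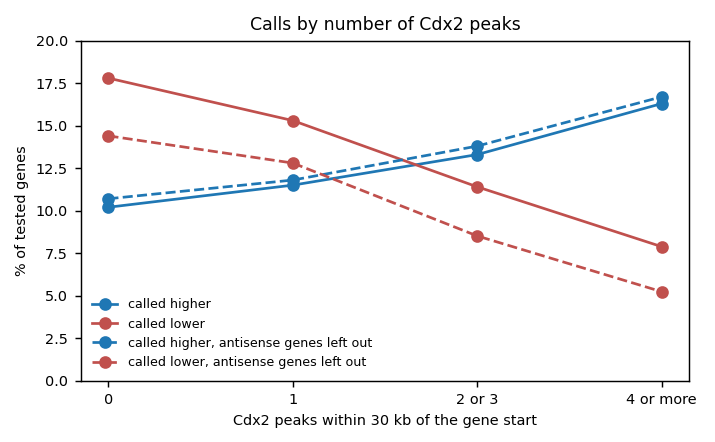
Share of tested genes called over 2-fold higher (blue) or lower (red) in the mutants against WT (y axis, %), by the number of Cdx2 peaks of intact Cdx2 within 30 kb of the gene start (x axis). Dashed lines leave out genes under a 10 times higher antisense gene. The share of higher genes goes from 10.2% to 16.3% and that of lower genes from 17.8% to 7.88%.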

How the data were processed

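RNA-seq counts per gene were deposited by the authors in 1 table per replicate number. Per the labels and the methods, poly A RNA was sequenced as paired reads from stranded TruSeq libraries, aligned to mm10 with STAR 2.7.0d and counted with featureCounts. The 19919 genes in both tables were kept, as raw counts. The deposited merged Cdx2 peaks were used by position only, with no score. Genes were positioned by GENCODE on GRCm38, and promoters came from RefSeq GRCm38.p6.

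The mutant and WT libraries were compared with edgeR 4.0.16 (quasi-likelihood test, TMM scaling, filterByExpr) under R 4.3.3 and limma 3.58.1, with Benjamini-Hochberg adjustment over all genes tested, an adjusted p under 0.05 and a fold over 2. The same test was used jointly among the 7 constructs and against the 4 intact Cdx2 libraries without a fold threshold. Tables and plots were made with Python 3.11.15, pandas 2.3.3, numpy 2.4.6, scipy 1.17.1, pysam 0.24.0 and matplotlib 3.10.9. Intervals of count ratios are 95% intervals and cover counting error only. In counts simulated for mutants against WT over 15467 genes, 95.5% of 200 genes changed by 1.5 and 100.0% of those changed by 3 on the log2 scale were recovered, and among the mutants 91.0% at 1.5. The simulated libraries were drawn independently, with a spread set by the level of the gene. They lacked the shared deviations of same-numbered libraries and, for mutants against WT, any difference among constructs. The real data are thus less regular than these counts.

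Alternatives were other scalings, filters and folds, DESeq2 1.42.0, thinned WT libraries, summed libraries, a replicate block and leaving out replicates or constructs. Leaving out genes under an antisense gene and the terms for each change were added after the data were seen. Members and the 31 gene lists were chosen with earlier results of these data known. Named genes were Cdx2, list members, the 10 largest rises and falls (called, mean of at least 50 counts, no overlap, no predicted gene), the 10 lowest p among the mutants and 5 each way against intact Cdx2. Some listed genes are not reported here by name. Which alignment of the replicate 2 table's header became its WT column is not stated in the sources used here.

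Replicate numbers did not pair WT with mutant libraries, whose deviations correlated at -0.21 to -0.16 over 7 pairs. Mutant libraries of the same number deviated together, at 0.35 to 0.57 over 21 pairs of constructs.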

Additional observations from a re-analysis of the deposited data

Results flagged for a closer look

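The constructs differed from each other under the same contrast with WT. By edgeR's quasi-likelihood test over the 7 constructs 3931 genes differed, and 7618 differed with change 3 as a term, a model chosen after the data were seen. For the 10 genes with the lowest p the range of construct means on the log2 scale was 3.57 for Enox1, 2.91 for Trh, 2.72 for Dnmt3l, 2.25 for Ntn1, 2.16 for Zfp773, 1.88 for Lin28a, 1.6 for Mest, 1.53 for B3gnt7, 1.48 for Adgre5 and 1.24 for Sfmbt2. Cdx2 stood at 61.3 to 92.9 CPM with change 3 and at 143 to 146 CPM without it in replicate 1, and its part in these differences was not tested.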

How the results depend on the processing

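Against 4017 genes called over 2-fold, the count was 2295 with a mean of at least 3 CPM, 2356 with the fold tested in the model, 1370 at a fold over 4 and 6979 at a fold over 1.5. Over the alternatives 8 to 28 Hox genes were called higher, the fewest where most fall under the filter, and at most 1 lower. Of the trophoblast stem cell genes 12 to 14 were called higher and none lower. Leaving out replicates gave 3549 to 3942, the replicate block 4015, and at any fold 8478 to 8907 and 10811. Against intact Cdx2, leaving out replicates gave 7154 to 7946 genes and the block 9329. The replicate numbers pair the mutant libraries, and with the replicate block 6949 genes differed among the constructs, against 3931 without it. As terms, changes 1, 2 and 3 gave 4, 0 and 7618 genes, with the replicate block 66, 228 and 8601, and with summed libraries 21, 32 and 8083. Within 5 kb a peak lay near 32.1% of higher, 21.3% of lower and 30.2% of not called genes, and within 100 kb near 97.9%, 96.4% and 97.4%. The block moved neither of the other counts given here by over 1.5 times.

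Signs turned only in genes that were not called. Ebf1 had a log2 fold change of 0.03 without replicate 2, 0.01 without construct R23 and 0.05 with WT thinned. Gapdh had -0.16 to 5.17 when replicates were left out. Zfp42 had 0.0 under upper quartile scaling and without replicate 1. Xist, positive in the main fit, had -0.0 with no filter, -0.06 without replicate 1, -0.05 without WT replicate 1, -0.16 without R1, -0.13 without R2, -0.08 without R12, -0.2 over 20 libraries and -0.06 with WT thinned. Without replicate 2 it kept its sign, at 0.14. The causes were not tested. With 2 WT libraries, the WT spread rests on 1 pair.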
